A study of Rattus norvegicus with 12 samples.

Results

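The SLC25 genes encode the mitochondrial carriers, the family of inner membrane proteins that exchange nucleotides, phosphate, organic acids, amino acids, cofactors and metal ions between the mitochondrial matrix and the cytosol. In the rat count table, 46 protein-coding genes carried a symbol of the form Slc25a followed by a number, out of 22250 protein-coding genes and 34599 genes in all, and these 46 were taken as the members whatever their level. They were followed in the left ventricle (LV) of male Sprague-Dawley rats, with 4 rats in every group (Sham, MI and iCarP+/Light+), on day 1 after surgery. Sham rats had their chest opened with no ligation, whereas MI rats had the left anterior descending coronary artery tied and were given no treatment. In iCarP+/Light+ rats the artery was tied, the green alga Chlorella was injected into the infarct and iCarP, a biodegradable patch that carries light from an optical fibre, was glued to the epicardium over it and lit. What the alga, the patch, the glue and the light each contributed cannot be told apart from MI rats alone, because they came together. The labels give no genotype or age, and the methods name an age of 6 weeks for the male rats bought for an illumination experiment without repeating one beside the infarct surgery. Total RNA of the infarct region, or of the LV in Sham rats, was measured in each rat, and nothing in the labels names a batch.

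In the heart, the carriers stand between the respiratory chain and the contracting cell. The ADP/ATP carriers and the phosphate carrier feed ATP synthase and send its product out, the carriers of the malate-aspartate shuttle bring reducing equivalents in, and the carnitine/acylcarnitine carrier brings in fatty acids for oxidation. Slc25a4 is known as the ADP/ATP carrier of heart and skeletal muscle, and Slc25a5 as the form of proliferating and many other cells.

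Between 14064414 and 17136958 reads were counted per rat, and genes of the mitochondrial genome took 22.8% to 28.9% of them in Sham rats, but 8.52% to 11.5% after MI alone and 7.14% to 14.2% after MI with iCarP+/Light+. Levels are CPM, the counts of a gene scaled to a common library size with edgeR's TMM factors, or RPKM, the same divided by gene length in kilobases, where genes are set against each other. Log2 fold changes carry the standard error (SE) of edgeR's quasi-likelihood fit to all 12 rats, and a gene rose or fell where its p, adjusted by the Benjamini-Hochberg method over the 15101 genes tested, was below 0.05. Where the labelled tissue was checked against its markers, the 10 cardiomyocyte genes summed to 47186 to 51877 CPM in Sham, 3118 to 6229 CPM in MI and 2544 to 7386 CPM in iCarP+/Light+ rats, and all 10 fell from Sham to MI. The 9 leukocyte genes in the table summed to 237 to 418 CPM in Sham, 3785 to 6819 CPM in MI and 5807 to 10326 CPM in iCarP+/Light+ rats, and 8 of them rose from Sham to MI. Fibroblast markers, 5 of 6 of which fell from Sham to MI, summed to 3836 to 4452 CPM in Sham rats, 1284 to 1675 CPM in MI rats and 914 to 1765 CPM in iCarP+/Light+ rats. Endothelial markers, of which 5 of 5 fell, summed to 1504 to 1682, 636 to 1036 and 876 to 982 CPM in the same order. In bulk tissue, fewer cells of a type and less RNA per cell cannot be told apart, and the part that any of these lists played in the results on the carriers was not tested.

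Of the 46 members, 40 had enough counts to be tested. The ADP/ATP carrier Slc25a31 and the carriers Slc25a41, Slc25a48 and Slc25a54 had no count in any rat, Slc25a18, a glutamate carrier, had 0 to 2 counts per rat and Slc25a47 had 0 to 3. A count of 0 allows up to 3 counts, or 0.144 to 0.228 CPM depending on the rat, and covers counting error only. The genes with no count were thus not detectable above that limit, whichever the group. Slc25a18 and Slc25a47 were seen only in the few reads given.

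From Sham to MI, 8 carriers rose and 24 fell, while the other 8 did not pass the test. Over all genes tested, 30.2% rose and 33.6% fell, 63.8% in either direction. The median log2 fold change of the members was -0.82, against -0.06 over all genes tested, and their values ran from -4.38 for Slc25a21 to 3.68 for Slc25a43. Slc25a21 and Slc25a43 were sparse in the group where they were low, and with at least 10 counts asked of every rat neither was tested, leaving 7 higher and 23 lower of 36 members. In the same 24 members every MI rat lay below every Sham rat, and in the same 8 every MI rat lay above, whereas 31.4% and 27.6% of all genes were separated in this way. Scaling by total counts alone, without TMM factors, moved the median of all genes to 0.52 and that of the members to -0.24, with 11 members higher and 16 lower where 51.0% and 18.4% of all genes were, but the distance between the medians remained -0.76. Slc25a10, Slc25a30, Slc25a36, Slc25a38, Slc25a39, Slc25a40, Slc25a45 and Slc25a46 then lost their calls, and Slc25a27, Slc25a28 and Slc25a32 were called higher. By role, 3 of the 6 tested carriers of adenine nucleotides and phosphate rose and 3 fell. Of the 7 carriers of carboxylates, redox shuttles and acylcarnitines, 1 rose and 6 fell. Among amino acid carriers 3 of 6 tested fell and the others did not pass the test, and among the 11 carriers of cofactors, pyrimidine nucleotides and glutathione 2 rose and 7 fell.

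**Figure D1:**
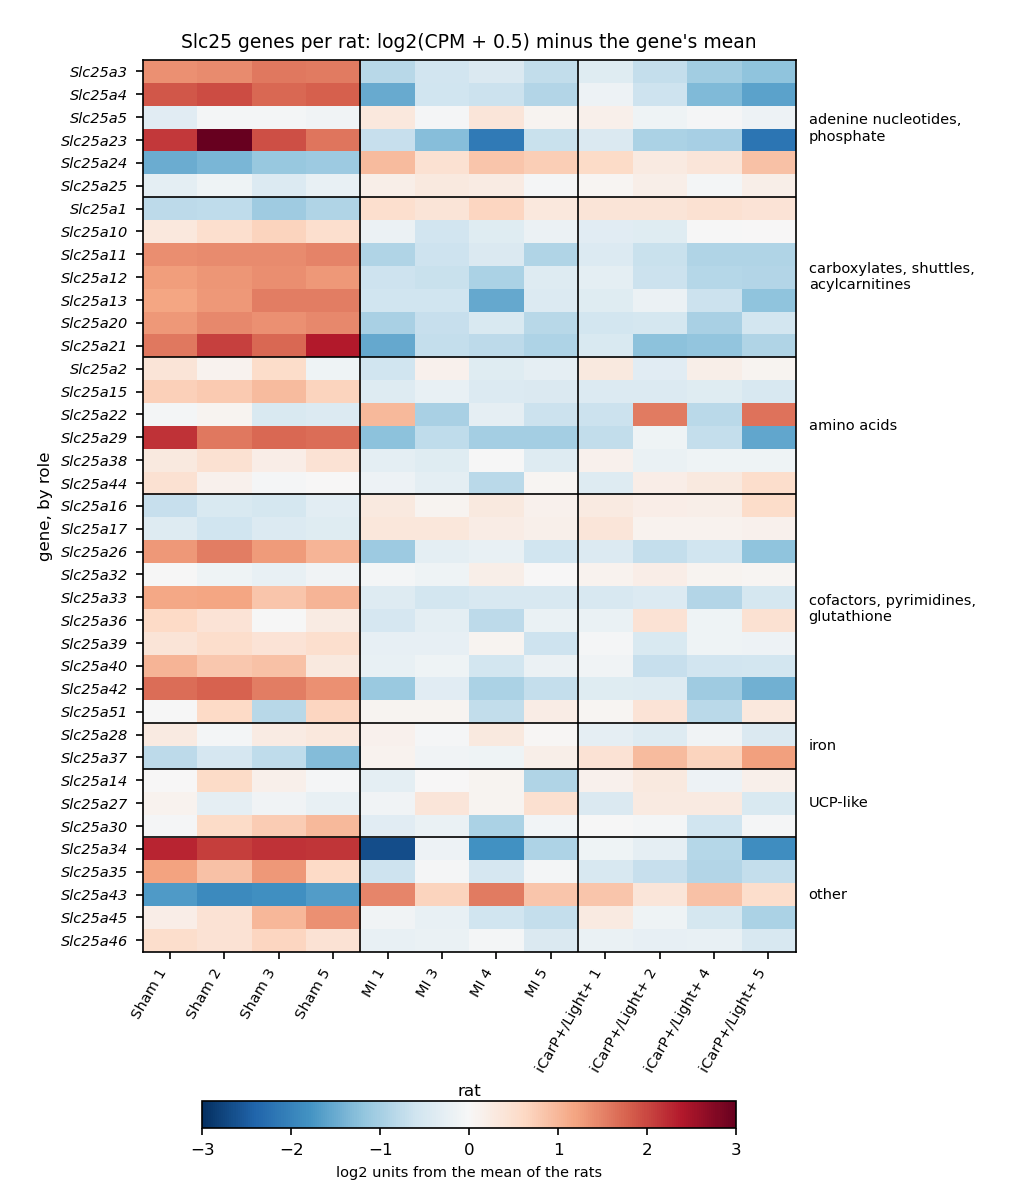
Level of 39 of the 40 tested Slc25 genes in each of the 12 rats. Columns are rats and rows are genes grouped by what they carry, the colour is log2(CPM + 0.5) minus the mean of the gene over the rats, and the scale ends at -3 and 3. The 4 Sham columns stand apart from the 8 columns of infarcted rats, with 23 of the genes drawn lower in MI and 8 higher, among the latter Slc25a24 and Slc25a43.

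From MI to iCarP+/Light+, 1 carrier rose, 1 fell and 38 did not pass the test. Over all genes tested, 11.6% rose and 2.01% fell in this comparison. The carrier that rose was Slc25a37 and the one that fell was Slc25a28, the genes of both mitoferrins, which bring iron into mitochondria. The median log2 fold change of the members was 0.05, against 0.01 over all genes tested. Every iCarP+/Light+ rat lay above every MI rat for 2 members, Slc25a37 and Slc25a36, and below for 1, Slc25a28, while 12.1% and 4.37% of all genes were separated upward and downward. From Sham to iCarP+/Light+, 7 carriers rose and 24 fell, where 33.5% of all genes tested rose and 33.0% fell (66.5% in either direction), and the median was -0.74 against 0.02. All iCarP+/Light+ rats lay above all Sham rats for 8 members and below for 22, as was so for 31.9% and 31.6% of all genes. With total counts alone the split for iCarP+/Light+ was 1 higher and 8 lower against MI, where 7.97% and 18.0% of all genes were higher and lower, and 9 higher and 21 lower against Sham, where 44.1% and 24.1% were. The members lower against MI were then Slc25a28 and the 7 others Slc25a5, Slc25a15, Slc25a17, Slc25a24, Slc25a25, Slc25a43 and Slc25a46. The comparisons of each infarct group with Sham share the 4 Sham rats, so their likeness is no independent evidence.

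**Figure D2:**
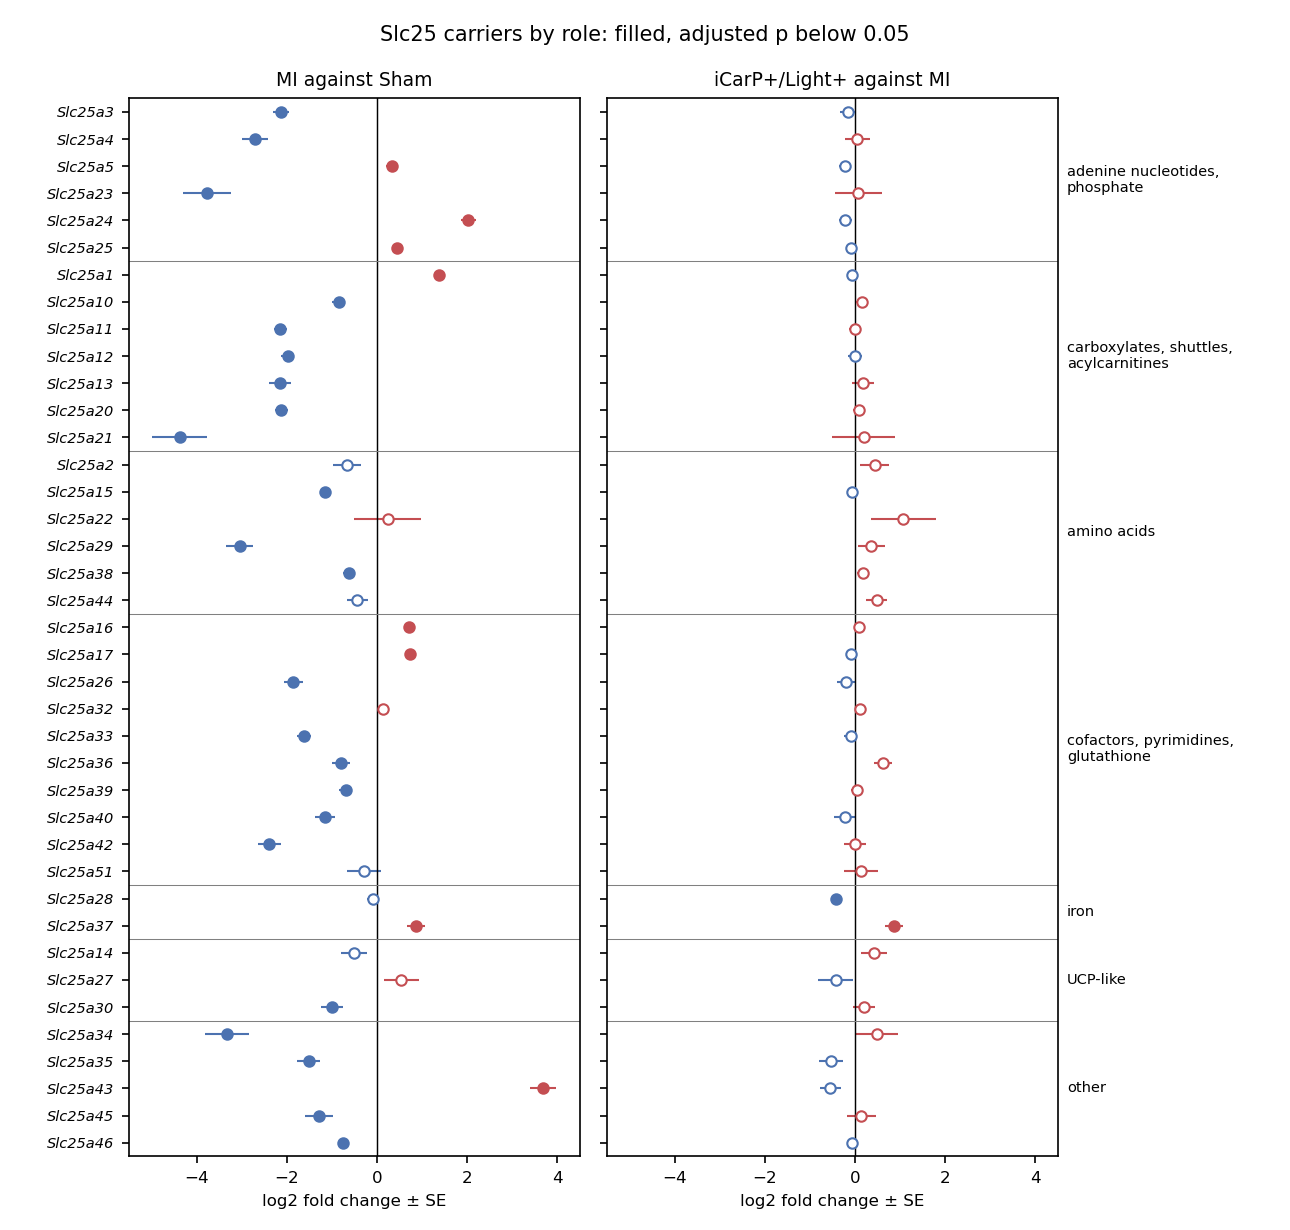
Log2 fold change of 39 of the 40 tested Slc25 genes with its SE from the edgeR fit, for MI against Sham on the left and iCarP+/Light+ against MI on the right. Filled points had an adjusted p below 0.05 and open points did not. The left panel runs from -4.38 to 3.68 with 31 filled points, and the right panel has 2 filled points, Slc25a28 at -0.41 and Slc25a37 at 0.86.

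The promoters of 6 carriers with high levels or large falls, and of 4 carriers that rose, with and without matches in both sets, were set out to show what sequence stands before genes that fell or rose together. RefSeq sequences (assembly GRCr8) from 250 bases before to 50 bases after the annotated start were matched by symbol for 39 of the 46 members. The ETS motif CCGGAAG, which the factor GABP binds, the core TGCGCA of NRF1 sites, the E-box CACGTG and the site AAGGTCA of the estrogen-related receptors were searched on both strands, since such factors are known regulators of mitochondrial genes. None of these motifs is contained in another. Capitals mark the matches, and a match on the other strand is shown as its reverse complement.
Slc25a4, chr16:52805271-52805570, plus strand: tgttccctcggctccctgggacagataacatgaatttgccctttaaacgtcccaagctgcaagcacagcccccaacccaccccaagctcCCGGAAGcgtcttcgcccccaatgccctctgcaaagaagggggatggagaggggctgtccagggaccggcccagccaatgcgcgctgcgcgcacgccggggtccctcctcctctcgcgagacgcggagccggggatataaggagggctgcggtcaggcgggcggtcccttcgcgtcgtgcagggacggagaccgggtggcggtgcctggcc
Slc25a3, chr7:27506578-27506877, minus strand: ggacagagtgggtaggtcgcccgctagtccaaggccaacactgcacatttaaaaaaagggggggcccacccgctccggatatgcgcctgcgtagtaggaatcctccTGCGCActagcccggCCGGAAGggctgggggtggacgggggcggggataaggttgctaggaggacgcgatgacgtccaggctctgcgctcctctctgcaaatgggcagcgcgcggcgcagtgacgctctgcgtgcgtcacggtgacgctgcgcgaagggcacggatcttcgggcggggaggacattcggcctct
Slc25a20, chr8:118243323-118243622, plus strand: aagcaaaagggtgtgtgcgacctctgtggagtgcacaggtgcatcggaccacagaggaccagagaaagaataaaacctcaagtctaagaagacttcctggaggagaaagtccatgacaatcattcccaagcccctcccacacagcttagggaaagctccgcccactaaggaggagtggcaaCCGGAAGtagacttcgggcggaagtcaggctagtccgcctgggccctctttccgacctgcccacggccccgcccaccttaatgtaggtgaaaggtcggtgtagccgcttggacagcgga
Slc25a34, chr5:159219843-159220142, minus strand: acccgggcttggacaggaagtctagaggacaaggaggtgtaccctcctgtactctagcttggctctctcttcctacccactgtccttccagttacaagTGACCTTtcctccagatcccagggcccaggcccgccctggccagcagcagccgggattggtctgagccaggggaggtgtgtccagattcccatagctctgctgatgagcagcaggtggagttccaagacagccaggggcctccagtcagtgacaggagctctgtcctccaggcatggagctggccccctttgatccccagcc
Slc25a11, chr10:55859011-55859310, minus strand: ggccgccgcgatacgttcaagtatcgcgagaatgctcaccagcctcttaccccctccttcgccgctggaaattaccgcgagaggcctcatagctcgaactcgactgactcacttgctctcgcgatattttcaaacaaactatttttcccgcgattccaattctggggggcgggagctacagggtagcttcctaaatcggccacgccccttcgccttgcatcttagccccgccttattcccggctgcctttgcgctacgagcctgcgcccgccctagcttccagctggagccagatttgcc
Slc25a23, chr9:1985316-1985615, minus strand: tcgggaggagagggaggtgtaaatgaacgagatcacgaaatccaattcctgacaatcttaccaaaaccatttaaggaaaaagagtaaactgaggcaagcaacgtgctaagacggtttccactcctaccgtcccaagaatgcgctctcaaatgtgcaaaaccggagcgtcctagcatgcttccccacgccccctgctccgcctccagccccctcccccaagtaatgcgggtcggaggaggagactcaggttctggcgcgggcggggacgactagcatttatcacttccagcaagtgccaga
Slc25a5, chrX:120897366-120897665, plus strand: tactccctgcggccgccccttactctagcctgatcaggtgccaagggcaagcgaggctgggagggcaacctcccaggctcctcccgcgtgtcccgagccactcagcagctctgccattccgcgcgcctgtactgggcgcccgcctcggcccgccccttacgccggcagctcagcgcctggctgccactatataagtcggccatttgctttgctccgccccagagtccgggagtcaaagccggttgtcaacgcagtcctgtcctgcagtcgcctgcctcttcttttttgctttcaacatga
Slc25a24, chr2:199449175-199449474, plus strand: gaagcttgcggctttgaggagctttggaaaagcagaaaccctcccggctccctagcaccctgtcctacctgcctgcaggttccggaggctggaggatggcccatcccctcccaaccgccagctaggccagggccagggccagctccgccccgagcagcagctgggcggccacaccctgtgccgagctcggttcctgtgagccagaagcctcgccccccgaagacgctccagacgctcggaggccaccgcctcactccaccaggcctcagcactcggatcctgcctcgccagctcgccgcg
Slc25a1, chr11:96559804-96560103, plus strand: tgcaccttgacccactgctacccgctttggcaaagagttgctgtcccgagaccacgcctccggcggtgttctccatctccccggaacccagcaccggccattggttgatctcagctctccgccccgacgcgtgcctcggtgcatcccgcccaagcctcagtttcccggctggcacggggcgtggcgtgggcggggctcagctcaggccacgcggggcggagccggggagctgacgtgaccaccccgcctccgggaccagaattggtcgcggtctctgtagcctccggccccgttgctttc
Slc25a25, chr3:36116532-36116831, minus strand: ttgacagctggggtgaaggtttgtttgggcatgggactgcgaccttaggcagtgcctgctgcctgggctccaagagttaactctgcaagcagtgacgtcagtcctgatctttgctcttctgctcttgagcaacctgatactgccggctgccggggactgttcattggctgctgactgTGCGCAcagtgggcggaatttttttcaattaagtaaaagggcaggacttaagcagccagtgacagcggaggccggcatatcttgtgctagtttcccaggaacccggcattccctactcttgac
The promoters of Slc25a4, Slc25a3 and Slc25a20 held the ETS motif, that of Slc25a3 also held the NRF1 core, and that of Slc25a34 held the estrogen-related receptor motif on the reverse strand. That of Slc25a25 held the NRF1 core. No match of these letters lay in the windows of Slc25a11, Slc25a23, Slc25a5, Slc25a24 and Slc25a1. Of the 24 carriers that fell from Sham to MI, 19 had a promoter here, and 12 of these 19 held none of the motifs. Of the 8 that rose, all but Slc25a37 had one, and 5 of these 7 held none. Where several starts were listed, as for Slc25a43 and Slc25a48, the first was used. The ETS motif was in 4 of the 19 promoters of carriers that fell and in 1 of the 7 of carriers that rose from Sham to MI (Slc25a17), and in 17.9% of the 39 member promoters against 8.75% of all 33469 promoters of this length. The NRF1 core was in 2 of the 19 and 1 of the 7, and in 10.3% of the member promoters against 7.24% of all, the E-box in 10.3% against 6.42%, and the estrogen-related receptor motif in 2.56% against 4.61%. The set of all promoters was not limited to protein-coding genes or to 1 window per gene, as the member set was, so the shares are of unlike sets. These are descriptions of the letters in the windows, with no test.

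Slc25a4 and Slc25a3 were the most abundant carriers in every group, and both fell. The values per rat are given in the order Sham 1, 2, 3 and 5, MI 1, 3, 4 and 5, and iCarP+/Light+ 1, 2, 4 and 5, which are the numbers in the labels. Slc25a4 (chr16:49266903-49270698, plus strand, in the rn6 coordinates of the count table) had 4548, 4825, 4106 and 4278 CPM in Sham, 438, 819, 789 and 676 CPM in MI, and 1110.4, 805, 499 and 410.4 CPM in iCarP+/Light+ rats. All Sham rats lay above all infarcted rats, and the MI and iCarP+/Light+ rats overlapped. The mean fell from 4439 ± 315 CPM in Sham to 680.4 ± 173 CPM in MI (SD, n = 4 each), a 6.52-fold difference (log2 fold change -2.71, SE 0.30, adjusted p = 5.0e-06, edgeR). In iCarP+/Light+ rats it was 706 ± 318 CPM (SD, n = 4), which was not separable from MI at this spread (log2 fold change 0.05, SE 0.28, adjusted p = 0.933, edgeR). Within MI, and again within iCarP+/Light+, the 4 rats fell in the same order for Slc25a4 as for the summed cardiomyocyte markers, which were 3118, 6229, 5948 and 5247 CPM in MI 1, 3, 4 and 5 and 7386, 5883, 3511 and 2544 CPM in iCarP+/Light+ 1, 2, 4 and 5. In Sham 1, 2, 3 and 5 these markers summed to 50474, 51877, 50928 and 47186 CPM, which was not the order of Slc25a4. The part of the cardiomyocyte content in the level of Slc25a4 was not tested.

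Slc25a3, the phosphate carrier (chr7:31816602-31824071, minus strand), had 2551, 2631, 2963 and 2913 CPM in Sham, 553, 667, 731 and 589.8 CPM in MI, and 769, 599, 477 and 431 CPM in iCarP+/Light+ rats. The Sham rats again stood above all others without overlap, and the fall from Sham to MI was 4.35-fold (log2 fold change -2.12, SE 0.18, adjusted p = 6.35e-07, edgeR). Slc25a5, the other abundant ADP/ATP carrier (chrX:123404518-123407645, plus strand), went the other way. It had 264, 318, 316 and 309.6 CPM in Sham, 414, 322, 423 and 351 CPM in MI, and 370.2, 303, 322 and 297 CPM in iCarP+/Light+ rats. The lowest MI rat lay only just above the highest Sham rat, and the rise from Sham to MI was 1.25-fold (log2 fold change 0.32, SE 0.12, adjusted p = 0.0349, edgeR). This call was lost when MI 1, MI 4, Sham 1 or Sham 5 was left out, with adjusted p from 0.0558 to 0.105 by edgeR in these 4 fits. The iCarP+/Light+ rats overlapped both other groups for Slc25a5.

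Because the genes moved unequally, the make-up of the family differed between Sham and infarcted rats. The summed level of the 46 genes was 6545 to 6942 RPKM in Sham, 1414 to 1872 RPKM in MI and 1247 to 2128 RPKM in iCarP+/Light+ rats. Slc25a4 made up 51.5% ± 2.71 of it in Sham rats, 31.6% ± 5.27 in MI rats and 32.9% ± 7.01 in iCarP+/Light+ rats (SD, n = 4 each). Slc25a5 made up 2.97% ± 0.228, 15.2% ± 2.97 and 13.6% ± 2.32 in the same order, while Slc25a3 stayed between 23.4% and 30.6% in every rat. Per length, the level of Slc25a4 was 15.3 to 20.3 times that of Slc25a5 in Sham, 1.25 to 2.998 times in MI and 1.63 to 3.54 times in iCarP+/Light+ rats. By mRNA level per length, Slc25a4 therefore remained above Slc25a5 in each of the 12 rats, by the least in MI 1. How reads that match several genes were counted is not given in the sources used here, and protein was not measured.

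**Figure D3:**
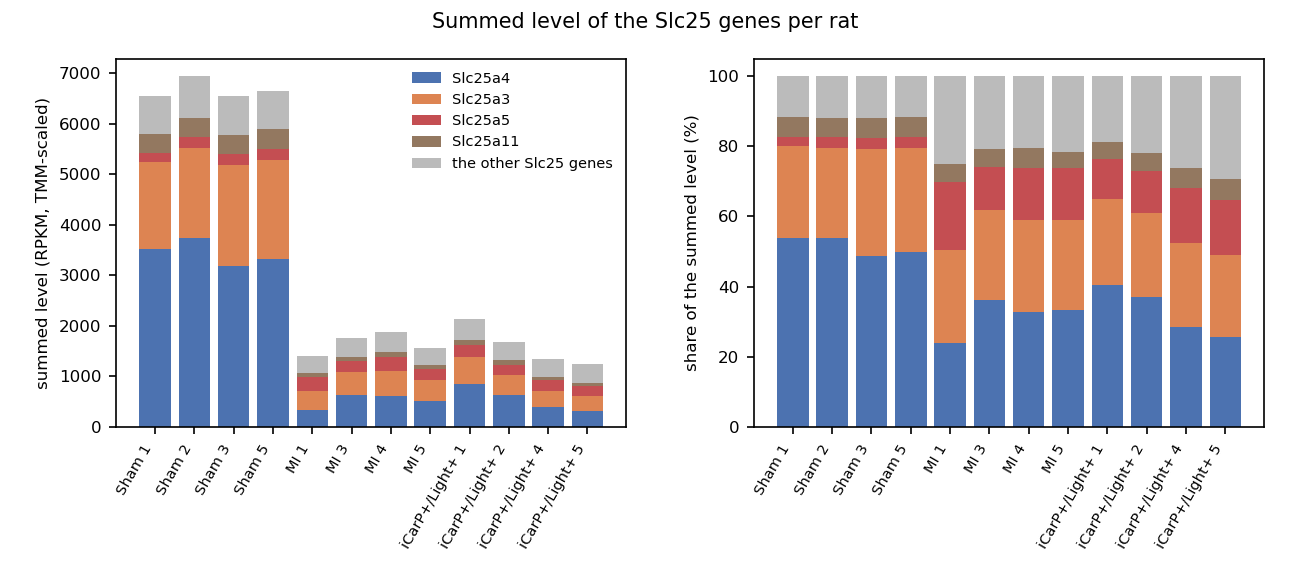
Summed level of the Slc25 genes in each rat, as RPKM with TMM scaling on the left and as a share of the sum on the right. Bars are stacked for Slc25a4, Slc25a3, Slc25a5, Slc25a11 and the other genes together. The 4 Sham bars reach 6545 to 6942 RPKM against 1247 to 2128 RPKM in the infarcted rats, and the part of Slc25a5 is wider in the infarcted rats on the right.

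By mean RPKM in Sham, Slc25a4 at 3441 and Slc25a3 at 1869 were followed by Slc25a11 at 381, Slc25a5 at 198, Slc25a39 at 138 and Slc25a20 at 133. Of these neighbours, only Slc25a39 and Slc25a20 overlapped between rats. In MI the order was Slc25a4 at 527, Slc25a3 at 429, Slc25a5 at 248, Slc25a11 at 86.3, Slc25a39 at 85.3, Slc25a20 at 30.6 and Slc25a24 at 29.3 RPKM. There Slc25a4 overlapped Slc25a3, Slc25a11 overlapped Slc25a39, and Slc25a20 overlapped Slc25a24. Slc25a5 thus stood below Slc25a11 in Sham and above it in MI and in iCarP+/Light+ rats, where it averaged 212 RPKM against 86.3 RPKM.

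The ATP-Mg/phosphate carriers load adenine nucleotides into the matrix and respond to calcium. Their 3 tested genes did not move together. Slc25a23 (chr9:9988055-10001962, plus strand) had 47.1, 137, 41.1 and 32.7 CPM in Sham, 6.22, 4.05, 2.01 and 6.44 CPM in MI, and 7.64, 5.20, 5.01 and 1.90 CPM in iCarP+/Light+ rats. Sham 2 stood far above the other Sham rats, yet the groups did not overlap, and the fall from Sham to MI was 13.7-fold (log2 fold change -3.78, SE 0.53, adjusted p = 4.13e-05, edgeR). Leaving out 1 rat at a time gave log2 fold changes from -4.00 to -3.10, the last without Sham 2, all past the threshold. Slc25a24 (chr2:211930326-211967505, plus strand) had 21.8, 23.6, 27.5 and 28.8 CPM in Sham, 119, 84.7, 109 and 102 CPM in MI, and 92.2, 74.7, 79.3 and 113 CPM in iCarP+/Light+ rats. Each infarcted rat was above each Sham rat, and the rise from Sham to MI was 4.08-fold (log2 fold change 2.03, SE 0.16, adjusted p = 3.11e-07, edgeR). Slc25a25 (chr3:11442397-11452529, minus strand) had 18.4, 20.7, 17.003 and 19.4 CPM in Sham, 25.5, 27.8, 26.7 and 22.0 CPM in MI, and 23.6, 25.4, 21.7 and 25.7 CPM in iCarP+/Light+ rats. Its rise from Sham to MI was smaller, 1.35-fold, with no overlap between the groups (log2 fold change 0.43, SE 0.11, adjusted p = 0.00386, edgeR). None of these genes passed the edgeR test from MI to iCarP+/Light+, with log2 fold changes of 0.08 for Slc25a23, -0.21 for Slc25a24 and -0.08 for Slc25a25. With total counts alone Slc25a24 (-0.48, adjusted p = 0.0279, edgeR) and Slc25a25 (-0.35, adjusted p = 0.038, edgeR) were called lower in that comparison.

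The malate-aspartate shuttle runs on the 2-oxoglutarate/malate carrier Slc25a11 and on the aspartate/glutamate carriers Slc25a12 and Slc25a13, and all of them fell from Sham to MI. Slc25a11 (chr10:57265704-57268081, minus strand) had 447, 457, 456 and 478 CPM in Sham, 91.3, 109.7, 125 and 90.2 CPM in MI, and 127, 107, 91.2 and 91.1 CPM in iCarP+/Light+ rats. The Sham rats were separate from the rest, and the fall from Sham to MI was 4.41-fold (log2 fold change -2.14, SE 0.14, adjusted p = 1.22e-07, edgeR). Slc25a12 (chr3:57882370-57957346, minus strand) had 109, 113, 121 and 112 CPM in Sham, 29.3, 28.0, 23.05 and 34.6 CPM in MI, and 37.0, 28.8, 24.9 and 24.3 CPM in iCarP+/Light+ rats. It fell 3.95-fold from Sham to MI with no overlap (log2 fold change -1.98, SE 0.15, adjusted p = 2.88e-07, edgeR). Slc25a13 (chr4:31608269-31730386, minus strand) had 55.2, 60.1, 70.7 and 71.1 CPM in Sham, 15.9, 15.9, 8.05 and 18.0 CPM in MI, and 18.6, 21.3, 15.4 and 10.2 CPM in iCarP+/Light+ rats. Its fall from Sham to MI was 4.44-fold, again without overlap (log2 fold change -2.15, SE 0.25, adjusted p = 8.16e-06, edgeR). The 4 enzymes of the shuttle, Mdh1, Mdh2, Got1 and Got2, also fell from Sham to MI, with log2 fold changes of -2.86, -1.95, -2.66 and -1.71. From MI to iCarP+/Light+ neither the 3 carriers nor the 4 enzymes passed the test, and the carriers differed by 0.00 (Slc25a11, SE 0.14), 0.00 (Slc25a12, SE 0.15) and 0.18 (Slc25a13, SE 0.25) on the log2 scale.

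Slc25a20, the carnitine/acylcarnitine carrier (chr8:117455262-117476734, plus strand), had 221, 245, 232 and 242 CPM in Sham, 45.6, 55.7, 65.1 and 50.3 CPM in MI, and 60.5, 62.5, 45.6 and 60.6 CPM in iCarP+/Light+ rats. The infarcted rats overlapped each other and lay below every Sham rat, and the fall from Sham to MI was 4.34-fold (log2 fold change -2.12, SE 0.14, adjusted p = 9.2e-08, edgeR). Slc25a10, the dicarboxylate carrier (chr10:109665682-109673143, plus strand), had 18.6, 21.0, 23.8 and 21.2 CPM in Sham, 13.1, 9.76, 11.4 and 13.0 CPM in MI, and 11.6, 11.4, 14.6 and 14.9 CPM in iCarP+/Light+ rats. It fell 1.79-fold from Sham to MI (log2 fold change -0.84, SE 0.14, adjusted p = 0.000207, edgeR), a call that was lost with total counts alone. Slc25a21, the oxodicarboxylate carrier (chr6:77624385-77848434, minus strand), had 3.83, 5.46, 4.25 and 7.08 CPM in Sham, 0, 0.378, 0.336 and 0.266 CPM in MI, and 0.563, 0.121, 0.135 and 0.281 CPM in iCarP+/Light+ rats. These were 53 to 96 counts per Sham rat and 0 to 9 counts per infarcted rat, so the fitted difference of -4.38 (SE 0.60, adjusted p = 3.32e-05, edgeR) rests on few reads.

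Slc25a1, the citrate carrier that supplies the cytosol with acetyl units for lipid synthesis, was the member of this role group that rose. The gene (chr11:87204175-87207264, plus strand) had 11.7, 11.9, 9.64 and 10.8 CPM in Sham, 29.3, 27.02, 32.7 and 25.5 CPM in MI, and 27.2, 27.3, 28.6 and 27.4 CPM in iCarP+/Light+ rats. All infarcted rats lay above all Sham rats, and the rise from Sham to MI was 2.60-fold (log2 fold change 1.38, SE 0.11, adjusted p = 4.33e-07, edgeR). From MI to iCarP+/Light+ the difference was -0.05 on the log2 scale (SE 0.11).

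Among the amino acid carriers, Slc25a29 for basic amino acids fell most from Sham to MI, from 18.4 ± 3.81 CPM to 2.22 ± 0.361 CPM (SD, n = 4 each; log2 fold change -3.05). Slc25a15, the ornithine carrier, and Slc25a38, the glycine carrier needed for heme synthesis, fell with log2 changes of -1.16 and -0.62. Slc25a2, another ornithine carrier, had a log2 fold change of -0.66, Slc25a44, which carries branched-chain amino acids, of -0.44 and Slc25a22, a glutamate carrier, of 0.24, and these 3 did not pass the test. Slc25a22 was uneven within groups: MI 1 had 3.304 CPM and iCarP+/Light+ 2 and 5 had 5.20 and 5.49 CPM, while the other 9 rats had 0.485 to 1.57 CPM.

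Of the carriers of cofactors, both that rose from Sham to MI rose little, Slc25a16, linked to coenzyme A, by 1.63-fold and Slc25a17, the carrier of peroxisomes, by 1.65-fold. The falls reached 5.22-fold for Slc25a42, a coenzyme A carrier, 3.62-fold for Slc25a26, which carries S-adenosylmethionine, and 3.06-fold for Slc25a33, a pyrimidine nucleotide carrier. Slc25a36, the other pyrimidine nucleotide carrier, fell 1.73-fold, and the glutathione carriers Slc25a39 and Slc25a40 fell 1.62-fold and 2.22-fold. Slc25a32, linked to folate and FAD, and Slc25a51, an NAD carrier, had log2 fold changes of 0.12 and -0.29 and did not pass the test. Of the members that did not pass from MI to iCarP+/Light+, Slc25a36 was nearest to the threshold. It had 19.1, 16.7, 12.4 and 15.0 CPM in Sham, 8.67, 10.1, 6.99 and 10.7 CPM in MI, and 10.8, 16.9, 11.4 and 17.2 CPM in iCarP+/Light+ rats. The MI rats lay below all others, with the lowest iCarP+/Light+ rat close to the highest MI rat, and the difference from MI to iCarP+/Light+ missed the threshold (log2 fold change 0.63, SE 0.20, adjusted p = 0.0598, edgeR). Slc25a36 was called higher there by DESeq2, and by edgeR without iCarP+/Light+ 1.

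The mitoferrins moved in opposite directions from MI to iCarP+/Light+. Slc25a37, mitoferrin-1, is known for its high level in developing red blood cells (chr15:51128268-51168384, minus strand). It had 6.94, 8.53, 7.06 and 4.72 CPM in Sham, 13.2, 11.4, 11.2 and 13.9 CPM in MI, and 16.7, 24.1, 19.9 and 29.7 CPM in iCarP+/Light+ rats. The groups formed 3 steps with no overlap. The rise from Sham to MI was 1.83-fold (log2 fold change 0.87, SE 0.21, adjusted p = 0.00242, edgeR), and that from MI to iCarP+/Light+ was 1.81-fold (log2 fold change 0.86, SE 0.20, adjusted p = 0.0112, edgeR). Without iCarP+/Light+ 5, the rat with the highest value, the second rise was 0.62 on the log2 scale and lost its call (adjusted p = 0.0671, edgeR). Slc25a28, mitoferrin-2, is the form of most other tissues (chr1:263420061-263431290, minus strand). It had 34.7, 27.2, 33.8 and 35.9 CPM in Sham, 31.3, 27.6, 34.8 and 29.4 CPM in MI, and 23.7, 21.7, 26.4 and 20.8 CPM in iCarP+/Light+ rats. Sham and MI overlapped (log2 fold change -0.10, SE 0.12, adjusted p = 0.508, edgeR), a difference that was 0.48 with total counts alone, and the iCarP+/Light+ rats lay below both. The fall from MI to iCarP+/Light+ was 1.33-fold and close to the threshold (log2 fold change -0.41, SE 0.12, adjusted p = 0.0403, edgeR), and leaving out any of MI 1, 4 or 5, iCarP+/Light+ 1, 2 or 5, or Sham 1 or 3 brought its adjusted p to between 0.0532 and 0.115 by edgeR. The call was also lost with no filter on low counts (adjusted p = 0.055, edgeR) and with only the compared groups in the fit (adjusted p = 0.0535, edgeR).

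Markers of other cells moved in the same comparison. The 5 red blood cell genes analysed, Alas2, Slc4a1, Hba-a1, Hba-a2 and Hbb, summed to 7861 to 10559.6 CPM in Sham, 2503 to 6925 CPM in MI and 6181 to 17455 CPM in iCarP+/Light+ rats. All 5 fell from Sham to MI, where Slc25a37 rose, and 4 of them rose from MI to iCarP+/Light+. Of the 9 leukocyte genes, 5 rose and 1 fell from MI to iCarP+/Light+, and their sums in iCarP+/Light+ 1, 2, 4 and 5 were 5807, 7617, 7364 and 10326 CPM, the same order of rats as for Slc25a37. In MI 1, 3, 4 and 5 the leukocyte sums were 5461, 4404, 6819 and 3785 CPM and did not follow Slc25a37. The red blood cell sums, 2503, 5066, 6925 and 2628 CPM in these MI rats and 10843, 6181, 15636 and 17455 CPM in iCarP+/Light+ 1, 2, 4 and 5, were not in the order of Slc25a37 in either group. The part of red blood cells and leukocytes in these levels was not tested.

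**Figure D4:**
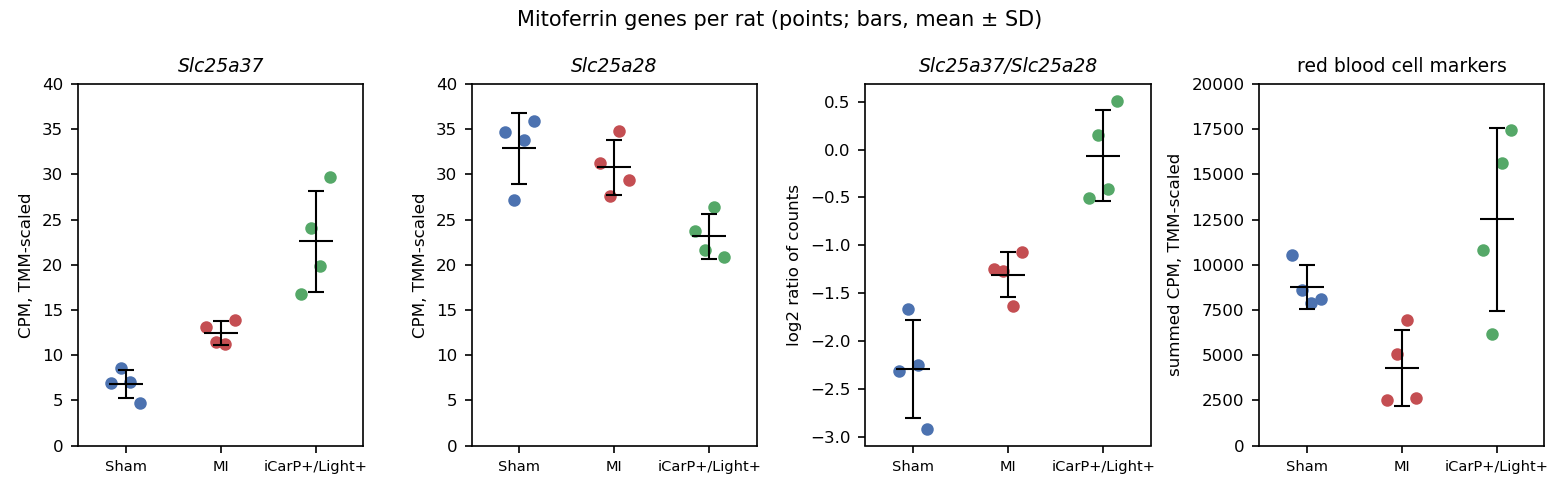
Slc25a37 and Slc25a28 in each rat as CPM with TMM scaling, the log2 ratio of their counts, and the summed CPM of 5 red blood cell markers. Points are rats, the wide bar is the mean and the error bar is the SD (n = 4). Slc25a37 steps up from 4.72 to 8.53 CPM in Sham through 11.2 to 13.9 CPM in MI to 16.7 to 29.7 CPM in iCarP+/Light+ rats, while Slc25a28 is lowest in iCarP+/Light+ rats.

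Among the uncoupling-protein-like carriers, Slc25a30 fell from 25.1 ± 6.90 CPM in Sham to 12.6 ± 3.10 CPM in MI (SD, n = 4 each; log2 fold change -0.995), and Slc25a14 and Slc25a27, at means of 2.97 CPM or less in each group, did not pass the test. The carriers with other or unsettled substrates held both large rises and large falls. Slc25a43 (chrX:123350346-123384846, plus strand, on the same chromosome and strand as Slc25a5) had 0.723, 0.546, 0.607 and 0.737 CPM in Sham, 10.3, 5.77, 11.1 and 6.54 CPM in MI, and 6.57, 4.59, 6.77 and 5.20 CPM in iCarP+/Light+ rats. These were 8 to 10 counts per Sham rat against 74 to 216 per infarcted rat, a 12.8-fold rise from Sham to MI (log2 fold change 3.68, SE 0.29, adjusted p = 3.19e-07, edgeR). The difference from MI to iCarP+/Light+ was -0.55 on the log2 scale and did not pass the test (SE 0.24, adjusted p = 0.165, edgeR).

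Slc25a34, a carrier with no settled substrate (chr5:160176124-160179978, minus strand), had 126, 109.8, 116 and 115 CPM in Sham, 3.59, 22.9, 6.88 and 13.1 CPM in MI, and 23.4, 21.2, 13.8 and 6.61 CPM in iCarP+/Light+ rats. The infarcted rats were more uneven than the Sham rats, but none came near them, and the fall from Sham to MI was 10.1-fold (log2 fold change -3.33, SE 0.49, adjusted p = 5.82e-05, edgeR). Slc25a35, Slc25a45 and Slc25a46, an outer membrane protein of the family, fell 2.86-fold, 2.43-fold and 1.68-fold from Sham to MI. Slc25a46 shares 183 bases with Sap130 on the opposite strand and Slc25a35 shares 42 bases with Rangrf. Also on the opposite strand, Slc25a40 shares 10114 bases with Rundc3b (0 to 10 counts per rat) and Slc25a13 shares 375 with AABR07059675.1 (0 to 2 counts). Since the strand setting of the counting is not given in the sources used here, reads of such partners cannot be told apart in the shared bases.

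Each carrier of iCarP+/Light+ rats was also set against the same Sham rats. Slc25a4, Slc25a3, Slc25a11, Slc25a20, Slc25a12 and Slc25a13 fell from Sham to iCarP+/Light+ with log2 fold changes of -2.65, -2.28, -2.14, -2.04, -1.98 and -1.97. Slc25a21 (-4.19), Slc25a23 (-3.70) and Slc25a34 (-2.84) fell most, and Slc25a10 (-0.69) fell less. Without iCarP+/Light+ 1 the value of Slc25a21 was -4.80, and without Sham 2 that of Slc25a23 was -3.02. Slc25a43 (3.13), Slc25a24 (1.82) and Slc25a37 (1.73) rose most, and Slc25a1 (1.32), Slc25a16 (0.81), Slc25a17 (0.63) and Slc25a25 (0.35) rose less. Slc25a21 and Slc25a43 were sparse in the group where they were low, and neither was tested here with at least 10 counts asked of every rat. Slc25a28 fell 1.42-fold (log2 fold change -0.51, SE 0.12, adjusted p = 0.00254, edgeR), a call that was lost with total counts alone (-0.18, adjusted p = 0.201, edgeR), as were those of Slc25a30 and Slc25a38. Slc25a5 did not pass the test (log2 fold change 0.10, SE 0.12, adjusted p = 0.502, edgeR), and nor did Slc25a36 (-0.17, adjusted p = 0.488, edgeR). With total counts alone Slc25a5 was called higher (0.41, adjusted p = 0.0124, edgeR), as was Slc25a32.

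Carriers of like substrate were also compared as log2 ratios of their counts within a rat, which do not depend on the scaling of the library. For 7 pairs in 3 comparisons, the exact two-sided permutation p, taken over 70 ways to part 8 rats into equal groups, cannot go below 0.0286. This smallest p was met in 12 of the 21 tests, and after Benjamini-Hochberg adjustment over the 21 tests it stood at 0.05, at the threshold and not below it. The Slc25a5/Slc25a4 ratio was -3.88 ± 0.178 in Sham and -0.82 ± 0.53 in MI (log2, SD, n = 4 each), a difference of 3.06 (exact permutation p = 0.0286), and its values ran from -4.11 to -3.70 and from -1.35 to -0.08. From MI to iCarP+/Light+ the difference was -0.21 with overlap (exact permutation p = 0.60). The Slc25a24/Slc25a23 and Slc25a25/Slc25a23 ratios were higher in MI than in Sham by 5.69 and 4.10 without overlap. The Slc25a33/Slc25a36 ratio was lower in MI than in Sham by 0.81 and lower again in iCarP+/Light+ than in MI by 0.72, with the nearest rats of the last pair of groups almost touching at -0.95 in each. With a prior of 2 counts in place of 0.5 these groups overlapped (difference -0.71, exact permutation p = 0.0571), which leaves 11 of the 21 tests at the smallest p.

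The mitoferrin ratio Slc25a37/Slc25a28 separated all 3 groups with either prior. Its log2 value ran from -2.92 to -1.67 in Sham, from -1.63 to -1.07 in MI and from -0.50 to 0.51 in iCarP+/Light+ rats. Sham 2 at -1.67 and MI 4 at -1.63 lay close together. The differences were 0.98 for MI against Sham, 1.24 for iCarP+/Light+ against MI and 2.23 for iCarP+/Light+ against Sham (exact permutation p = 0.0286 each, n = 4 per group). For the aspartate/glutamate carriers, Slc25a13/Slc25a12 overlapped between groups in every comparison, with differences of -0.21, 0.20 and -0.01 (exact permutation p = 0.314, 0.429 and 0.886). Slc25a39/Slc25a40 differed by 0.42, 0.30 and 0.71 in the comparisons MI to Sham, iCarP+/Light+ to MI and iCarP+/Light+ to Sham, with exact permutation p of 0.257, 0.314 and 0.0571.

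**Figure D5:**
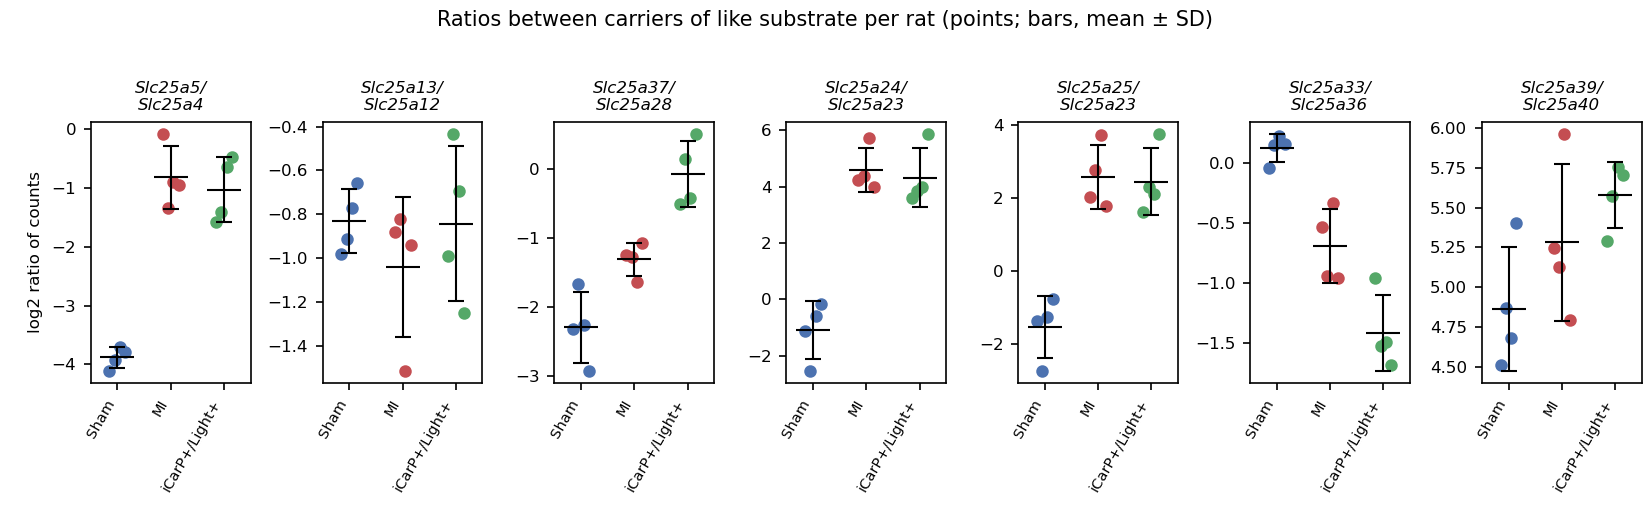
Log2 ratio of the counts of 2 Slc25 genes of like substrate in each rat, with a vertical scale of its own for each of the 7 pairs. Points are rats, the wide bar is the mean and the error bar is the SD (n = 4 per group). Slc25a5/Slc25a4, Slc25a24/Slc25a23 and Slc25a25/Slc25a23 separate Sham from the infarcted rats. Slc25a37/Slc25a28 forms 3 steps, with Sham and MI close at -1.67 and -1.63, and MI and iCarP+/Light+ almost touch at -0.95 for Slc25a33/Slc25a36.

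Other genes of mitochondrial transport were described beside the carriers. Of the family members that go by other symbols, Mtch2 (log2 fold change -1.48), Ucp2 (-1.02) and Ucp3 (-2.25) fell from Sham to MI and Mtch1 (-0.10) did not pass the test, while Ucp1 had no count. Of 12 genes that import carriers into the inner membrane, 1 rose and 4 fell, against 30.2% and 33.6% of all genes. Tomm70, the outer membrane receptor for carrier precursors, rose with a log2 fold change of 0.36 and Timm10, a chaperone of the space between the membranes, fell with -1.33, while Timm29 was at -0.43 and Tomm40, at 0.20, did not pass. Their median was -0.18, against -0.82 for the carriers. Of 23 tested transporters of other families, 6 rose and 14 fell. The mitochondrial pyruvate carrier genes Mpc1 (-2.55) and Mpc2 (-2.09) fell most, and Mcub (2.78), a subunit that dampens the calcium uniporter, and Tspo (2.04), an outer membrane protein abundant in macrophages, rose most. Between MI and iCarP+/Light+ the 12 import genes had log2 fold changes that ran from -0.40 to 0.43 and did not pass the test. Of the other transporters, Tspo (log2 fold change 1.52, adjusted p = 0.00124, edgeR), Sfxn5 (1.23, adjusted p = 0.00606, edgeR) and Vdac1 (0.41, adjusted p = 0.0156, edgeR) rose, and these were named after their values were seen.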

How the data were processed

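The authors extracted total RNA with Trizol, made libraries with a NEBNext Ultra kit and deposited one table of whole-number read counts per gene for the 12 rats. Their processing notes name HISAT2, featureCounts and the rn6 genome. Versions, annotation release, strand setting and the rule for reads that match several genes are not given in the sources used here. All 12 columns were matched to samples by title, and the treatment label set the groups. Libraries held 14064414 to 17136958 counts. The limit that a count of 0 allows, 3 counts, equalled 0.144 to 0.228 CPM, and such limits cover counting error only. Replicates differed by 14.1 to 114 in chi-square per gene, so none was taken for a repeat deposit. P-values are based on the spread between these rats.

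Genes passing edgeR's filterByExpr (minimum count 10) were fitted with TMM factors and the quasi-likelihood test in edgeR 4.0.16 (R 4.3.3), with 1 mean per group, over all 15101 genes, and p was adjusted by Benjamini-Hochberg. The general tests in the study's statistics section are not tied there to the RNA-seq and were not used, since the values are counts. The script was tested on simulated data. Log2 ratios used counts plus 0.5. A two-sided exact permutation test over rats was applied to 7 pairs, and Slc25a22/Slc25a18 was left out because Slc25a18 was not tested. The members and lists were chosen with earlier results of these data known. Values by rat are given for a fixed list of 14 members and for any member past the threshold from MI to iCarP+/Light+. They are also given for the 3 highest and 3 lowest changes against Sham among members with a mean of at least 1 CPM. Slc25a22 and Slc25a36 were added after their values were seen. Of other transport genes, the 2 highest and 2 lowest of each list from Sham to MI are named. Alternatives were DESeq2 1.42.0 and its size factors, limma 3.58.1 (voom), total counts alone, no genes of the mitochondrial genome, other filters on low counts, only the compared groups, a replicate block and each rat left out in turn. One member is counted with the others but not reported here by name. The pseudogenes Slc25a52 and Slc25a6 were not members. Figures were drawn with matplotlib 3.10.9.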

Additional observations from a re-analysis of the deposited data

Results flagged for a closer look

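In 72 groups of 4 rats looked at for members with full values and for pairs, 5 had a rat whose gap to its nearest neighbour, divided by the range of the group, was above Dixon's critical value at the 95% level. Chance gives about 1 in 20 groups, or 3.6 of the 72. On the log2 CPM scale, iCarP+/Light+ 4 stood above its group for Slc25a1 (0.865) and below it for Slc25a20 (0.900). Sham 1 stood below its group for Slc25a5 (0.858), and MI 4 below its group for Slc25a13 (0.840). The log2 ratio Slc25a24/Slc25a23 was highest in iCarP+/Light+ 5 (0.830).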

How the results depend on the processing

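With total counts alone in place of TMM factors, the members' median was -0.24 from Sham to MI (11 higher, 16 lower), -0.20 from MI to iCarP+/Light+ (1 higher, 8 lower) and -0.43 from Sham to iCarP+/Light+ (9 higher, 21 lower). Of all calls, 73.5%, 30.7% and 64.7% were then higher, against 47.3%, 85.2% and 50.3% with TMM. Slc25a28 turned to 0.48 from Sham to MI, and from MI to iCarP+/Light+ Slc25a4 (-0.20), Slc25a10 (-0.12), Slc25a11 (-0.26), Slc25a13 (-0.10), Slc25a20 (-0.18), Slc25a21 (-0.057) and Slc25a23 (-0.19) turned sign. The cause was not tested. The median from Sham to MI was -0.74 with no filter and -0.68 with only the compared groups, where Slc25a28 was at 0.041. Both of these left 0 members lower from MI to iCarP+/Light+ by edgeR (Slc25a28 -0.42, adjusted p = 0.055, and -0.45, adjusted p = 0.0535). DESeq2 called 2 members higher there, Slc25a37 and Slc25a36. Slc25a11 (0.00 with TMM) was -0.049 with DESeq2's factors and with DESeq2, -0.039 without mitochondrial genes, -0.038 with only the compared groups, -0.0095 with no filter and -0.058 with at least 10 counts in every rat, where Slc25a4 was -0.0085. Slc25a4 was -0.023 with limma-voom. With a prior of 2, Slc25a33/Slc25a36 differed by -0.71 from MI to iCarP+/Light+ (exact permutation p = 0.0571).

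Replicate numbers did not pair the rats, since deviations of same-numbered rats correlated by -0.15 to 0.07. With a replicate block, 7 members were higher and 24 lower from Sham to MI, with Slc25a5 at 0.29 (adjusted p = 0.142, edgeR), and 0 were higher and 0 lower from MI to iCarP+/Light+, with Slc25a37 at 0.78 (adjusted p = 0.0767, edgeR) and Slc25a28 at -0.37 (adjusted p = 0.0948, edgeR). Slc25a4 (-0.046), Slc25a12 (0.0067) and Slc25a23 (-0.26) turned sign under the block.

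Leaving out 1 rat at a time gave 7 to 8 members higher, 24 to 25 lower and a median of -0.88 to -0.71 from Sham to MI, and 7 to 8 higher, 24 lower and -0.78 to -0.67 for iCarP+/Light+ against Sham. The range for iCarP+/Light+ against MI was 0 to 2 higher, 0 to 1 lower and -0.080 to 0.084. There Slc25a37 ranged from 0.62 to 0.98 and Slc25a28 from -0.48 to -0.35, and uncalled genes crossed 0: Slc25a1 (-0.13 to 0.013), Slc25a4 (-0.25 to 0.19), Slc25a11 (-0.11 to 0.10), Slc25a12 (-0.15 to 0.10), Slc25a13 (-0.020 to 0.30), Slc25a20 (-0.024 to 0.18), Slc25a21 (-0.43 to 0.48) and Slc25a23 (-0.21 to 0.27). From Sham to MI, Slc25a28 ranged from -0.18 to 0.011. With 4 rats a group, Slc25a21 and Slc25a43 rest on 10 or fewer counts in their low groups.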

Other observations

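A pair of pseudogenes with family symbols was read unevenly. Slc25a52 had 12, 1, 62 and 1 counts in Sham, 27, 2, 0 and 1 in MI, and 0, 8, 2 and 2 in iCarP+/Light+ rats, so that Sham 3, MI 1 and Sham 1 held most of its reads. Slc25a6 had 2 to 17 counts per rat.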
